A study of Homo sapiens with 2 samples.

Results

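The 38 genes described here encode proteins of the G1/S transition and of DNA replication. They are the rows of the gene table that carry the 38 symbols of a cell cycle list, and all 38 were present among the 33694 genes counted. RNA was counted in single cells of C1, a derivative of HMLER, which is a human mammary epithelial line that was immortalised and transformed with the SV40 early region and an activated RAS gene. C1-sgEED cells carry a knockout of EED, which encodes a subunit that Polycomb complex PRC2 needs to methylate histone H3 and keep genes silent. C1-sgKMT2D cells carry a knockout of KMT2D, which encodes a histone methyltransferase of active enhancers, and C1-sgControl cells carry a control guide. All 3 lines share the C1 and HMLER background, with its SV40 large T antigen, and were grown in the same supplemented mixture of MEGM, DMEM and F12. Hashtag antibodies marked the lines before they were pooled, and the pool gave 1 library of transcripts and 1 of hashtags. Each line is therefore 1 sample, no difference below has a replicate check, and no p-value is given. The labels speak of mixed clones without their number, so a difference between lines and a difference between clones cannot be told apart.

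Cells license their replication origins in G1 by loading the MCM helicase, and fire them in S phase when cyclin-dependent kinases and the CDC45 and GINS factors turn the helicase on. Most of the enzymes that copy, package and repair the new DNA are transcribed shortly before and during S phase by E2F factors, which the RB proteins hold back in resting cells. SV40 large T antigen binds the RB proteins, so HMLER-derived lines carry a viral inhibitor of that brake.

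After filtering, 2338 C1-sgEED, 2348 C1-sgKMT2D and 1720 C1-sgControl cells carried 1 hashtag of a named line. They held 10256770, 13957344 and 9927122 unique molecular identifiers (UMIs) of genes, with medians of 3915, 5526 and 5672.5 UMIs per cell. Levels are given as CPM, the UMIs of a gene scaled to a fixed total of all gene UMIs in a group of cells, and the range in brackets after a value is its 95% interval for counting error alone. The filter removed 6.78% of C1-sgEED, 5.89% of C1-sgKMT2D and 27.2% of C1-sgControl barcodes, mostly for over 20% mitochondrial UMIs. Cells were called VIM-rich with at least 2 times as many VIM as KRT17 UMIs, KRT17-rich with the reverse, and between otherwise, given at least 5 UMIs of both genes together. VIM and KRT17 encode vimentin and a keratin. Sums of epithelial and mesenchymal markers followed the classes, but they hold KRT17 and VIM, which set the classes. The class rule itself favours that direction, so the sums are no check of the classes. The 7 epithelial markers, which include KRT17 itself, summed to 955 CPM in VIM-rich and 13300 CPM in KRT17-rich C1-sgEED cells, and to 1559 and 19710 CPM in the same classes of C1-sgKMT2D. The 7 mesenchymal markers, with VIM among them, summed to 11040 and 3011 CPM in these classes of C1-sgEED and to 8056 and 3753 CPM in those of C1-sgKMT2D. Immune markers were at 0 for 4 of 5 genes in each line, and immune, endothelial and neural lists each summed to at most 1.46 CPM in a whole line of the 3. EED was read at 13.4 CPM in C1-sgEED, 15.3 CPM in C1-sgKMT2D and 13.6 CPM in C1-sgControl, and KMT2D at 3.02, 5.02 and 4.63 CPM in the same lines. Neither transcript was lower in its own knockout beyond its counting interval, and no label places the edits within the genes, so these values say little about the labels. A further 1935 cells carried hashtag 2, which the labels give to no line, and they enter no comparison. Beside C1-sgControl, 3 of the 38 members were at least 1.5-fold higher in them and 7 as far lower, while 7.18% and 23.4% of 9137 genes were.

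E2F factors bind short sites close to the start of their target genes, and such sites were looked for in the promoters of the 38 genes. Promoter sequences of RefSeq on GRCh38.p14, from 250 bases before to 50 bases after the gene start, were at hand for 29 of the 38. The letters TTTCCCGC, TTTGGCGC, TTTGCCGC or TTTCGCGC, which share their ends, stood on either strand in the promoters of 18 of the 29 genes (62.1%). The same letters were in the promoters of 3.99% of 27305 genes, of 14 of 43 other replication genes (32.6%) and of 3 of 45 genes of a G2/M list (6.67%). The letters TTTGAA, part of an element known from G2/M genes, were in 3 of the 29 member promoters (10.3%), in 73.3% of G2/M promoters and in 18.2% of all genes. CCAAT was in 72.4% of the members, 71.1% of the G2/M list and 39.7% of all genes. None of these motifs contains another, though a promoter can hold several. Shown here are the promoters of 4 members with a larger ratio to C1-sgControl in C1-sgEED than in C1-sgKMT2D. Of these genes, GINS2 alone lay below the control in C1-sgKMT2D. The 4 promoters are those of CLSPN (chr1:35769929-35770228, minus strand), GINS2 (chr16:85688905-85689204, minus strand), MCM3 (chr6:52284693-52284992, minus strand) and FEN1 (chr11:61792661-61792960, plus strand). Each is written 5′ to 3′ on the strand of its gene, with the searched E2F letters in capitals.
CLSPN: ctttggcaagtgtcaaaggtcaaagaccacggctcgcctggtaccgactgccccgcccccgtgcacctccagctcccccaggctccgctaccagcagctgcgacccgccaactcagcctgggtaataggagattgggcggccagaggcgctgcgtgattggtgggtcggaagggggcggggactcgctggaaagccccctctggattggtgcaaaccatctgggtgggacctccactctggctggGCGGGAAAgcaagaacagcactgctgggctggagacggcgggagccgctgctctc
GINS2: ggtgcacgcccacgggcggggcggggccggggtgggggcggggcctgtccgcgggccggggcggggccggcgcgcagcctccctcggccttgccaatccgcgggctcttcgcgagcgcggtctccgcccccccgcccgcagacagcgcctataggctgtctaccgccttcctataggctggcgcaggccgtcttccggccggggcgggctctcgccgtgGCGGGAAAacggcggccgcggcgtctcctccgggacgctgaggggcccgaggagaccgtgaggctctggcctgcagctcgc
MCM3: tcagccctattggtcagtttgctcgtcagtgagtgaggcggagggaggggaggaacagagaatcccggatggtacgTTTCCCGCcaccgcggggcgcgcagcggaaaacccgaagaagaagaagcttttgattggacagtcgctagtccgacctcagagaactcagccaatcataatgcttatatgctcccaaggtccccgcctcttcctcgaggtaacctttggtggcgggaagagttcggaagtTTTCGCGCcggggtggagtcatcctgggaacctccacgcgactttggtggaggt
FEN1: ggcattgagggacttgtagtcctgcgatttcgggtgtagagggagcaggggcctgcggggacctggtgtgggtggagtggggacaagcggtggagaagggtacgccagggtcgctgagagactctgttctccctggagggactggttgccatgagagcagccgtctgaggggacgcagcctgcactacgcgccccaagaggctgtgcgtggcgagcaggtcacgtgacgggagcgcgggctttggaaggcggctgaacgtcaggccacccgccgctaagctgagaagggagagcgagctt
The E2F letters began 5 bases before the start in CLSPN, 31 bases before it in GINS2, and 174 and 4 bases before it in MCM3, and they were not in this window of FEN1. The median ratio to C1-sgControl was 1.53 for the 18 members with the letters and 1.59 for the 11 without in C1-sgEED, and 1.15 and 1.3 for the same genes in C1-sgKMT2D. A match of letters is a description and not a bound site.

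Transcripts of the 38 genes took a larger share of UMIs in both knockout lines. Their sum was 1915 CPM (1888 to 1942) in C1-sgEED, 1617 CPM (1596 to 1638) in C1-sgKMT2D and 1212 CPM (1190 to 1234) in C1-sgControl. The ratio of the sums was 1.58 (1.55 to 1.62) for C1-sgEED over C1-sgControl and 1.33 (1.31 to 1.36) for C1-sgKMT2D over C1-sgControl. A higher sum can come from more cells in S phase or from more transcripts per cell, which sums cannot tell apart. In C1-sgEED, 22 of the 38 members were at least 1.5-fold above C1-sgControl and 0 were at least 1.5-fold below it, while 11.7% of 9569 genes were as far above and 8.65% as far below. The members' median ratio was 1.57, beside 1.06 for all genes. In C1-sgKMT2D, 10 of the 38 members were at least 1.5-fold above C1-sgControl and 0 as far below, while 7.76% of 9295 genes were as far above and 14.6% as far below, with medians of 1.29 for the members and 0.978 for all genes. These 2 comparisons share their control cells. VIM-rich cells were 46.8% of C1-sgEED, 40.2% of C1-sgKMT2D and 0.93% of C1-sgControl cells, so whole-line ratios compare lines of unlike class mix. The part of that mix in them was not tested, and ratios within a class are given further below. The genes behind the percentages had at least 5 CPM as the mean of the 2 lines. CCNE2 and E2F8 fell under that floor in the first comparison, and POLA1, EXO1, CCNE2 and E2F8 in the second, and they are counted among the 38 all the same.

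**Figure D1:**
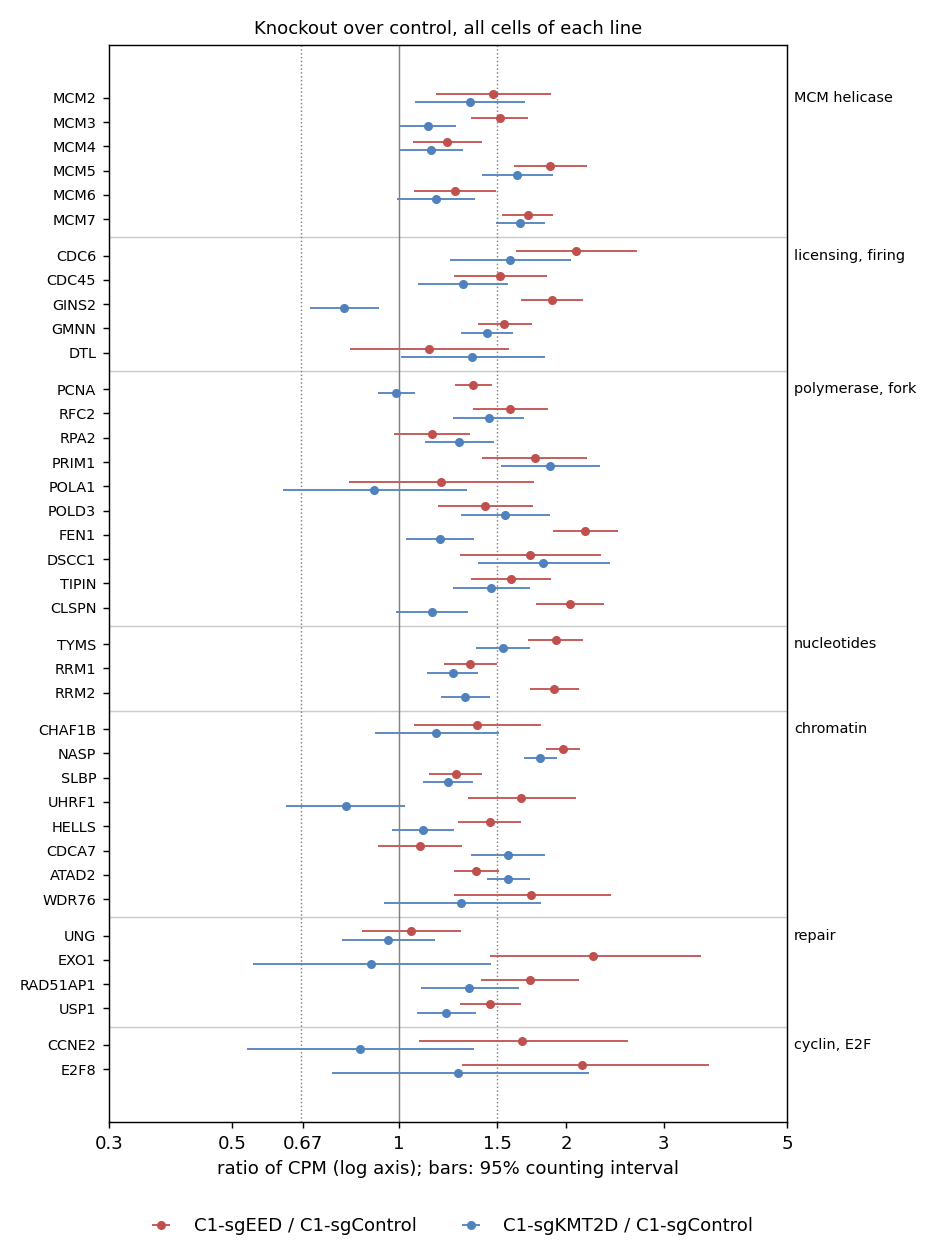
Ratio of CPM in each knockout line to C1-sgControl for the 38 genes by role, on a log axis, with points for C1-sgEED (red) and C1-sgKMT2D (blue) and bars for 95% counting intervals. All 38 C1-sgEED points lie above 1, from UNG at 1.05 to EXO1 at 2.24, and 31 of the 38 C1-sgKMT2D points do.

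The 6 MCM genes encode the ring of the replicative helicase, and each was higher in C1-sgEED than in C1-sgControl with an interval above 1. Among KRT17-rich cells alone, MCM5 and MCM7 kept such an interval, while those of MCM2, MCM3, MCM4 and MCM6 held 1. MCM5 was read at 49.6 CPM in C1-sgEED, 43.3 CPM in C1-sgKMT2D and 26.5 CPM in C1-sgControl, the highest C1-sgEED ratio of the helicase genes at 1.87 (1.61 to 2.18), with 1.63 (1.41 to 1.90) in C1-sgKMT2D. MCM7 was read at 94.3, 91.3 and 55.3 CPM in the same order of lines, with ratios of 1.71 (1.53 to 1.90) and 1.65 (1.49 to 1.83). For these 2 genes the knockout lines stood close together and far above the control. MCM3 was read at 70.8 CPM in C1-sgEED, 52.5 CPM in C1-sgKMT2D and 46.6 CPM in C1-sgControl, with ratios of 1.52 (1.35 to 1.71) and 1.13 (1.00 to 1.27). MCM2, the subunit that also binds histones, was read at 17.8, 16.2 and 12.1 CPM, with ratios of 1.48 (1.17 to 1.87) and 1.34 (1.07 to 1.69). MCM4, the lowest C1-sgEED ratio of the group, was read at 44.1, 41.1 and 36.1 CPM, with ratios of 1.22 (1.06 to 1.41) and 1.14 (0.998 to 1.31). The helicase genes thus did not shift by 1 factor, since MCM4 and MCM6 (ratios 1.26 and 1.16) stayed under 1.5-fold in each knockout line while MCM5 and MCM7 passed it in each.

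Among the loading and firing factors, GINS2 lay on opposite sides of the control in the knockout lines. GINS2, a subunit of the GINS complex that completes the active helicase, was read at 70.1 CPM (65.1 to 75.4) in C1-sgEED, 29.6 CPM (26.8 to 32.6) in C1-sgKMT2D and 37.2 CPM (33.5 to 41.2) in C1-sgControl. Its ratio to the control was 1.89 (1.66 to 2.14) in C1-sgEED and 0.796 (0.690 to 0.919) in C1-sgKMT2D, the lowest of the 38 in that line and 1 of 7 below 1 there. GINS2 lies on chromosome 16 (85676198 to 85690073 of GRCh38, minus strand), where the median ratio of 387 genes in C1-sgKMT2D over C1-sgControl was 0.619 and 93.8% of genes were below 1. The part of that chromosome-wide value in the GINS2 value was not tested. In C1-sgEED the median on chromosome 16 was 1 over 424 genes. CDC6, which loads the MCM ring on origins, was read at 19.7 CPM in C1-sgEED, 15.0 CPM in C1-sgKMT2D and 9.47 CPM in C1-sgControl, with ratios of 2.08 (1.62 to 2.69) and 1.58 (1.23 to 2.04), the highest of the 5 loading and firing genes in each line. CDC45, which activates the helicase with GINS, had ratios of 1.52 and 1.30, and GMNN, the geminin inhibitor of origin loading, 1.55 and 1.44. DTL, an adaptor of the ligase that destroys the loading factor CDT1, was read at 8.09 and 9.67 CPM in C1-sgEED and C1-sgKMT2D and at 7.15 CPM in C1-sgControl, and its C1-sgEED ratio of 1.13 (0.814 to 1.58) held 1 within its interval.

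Among the 10 polymerase, clamp and fork genes, 6 were 1.5-fold or more above the control in C1-sgEED (beside 11.7% of all genes) and 3 in C1-sgKMT2D (beside 7.76%). FEN1, the flap nuclease that trims Okazaki fragments, was read at 70.7 CPM in C1-sgEED, 38.6 CPM in C1-sgKMT2D and 32.6 CPM in C1-sgControl, with ratios of 2.17 (1.90 to 2.48) and 1.18 (1.03 to 1.36). CLSPN, the claspin adaptor between the fork and the CHK1 checkpoint kinase, was read at 60.2, 33.9 and 29.6 CPM, with ratios of 2.03 (1.77 to 2.34) and 1.14 (0.987 to 1.33). Both genes thus stood out in C1-sgEED and were near the control in C1-sgKMT2D. PRIM1, the catalytic primase subunit, was read at 23.5, 25.1 and 13.4 CPM, with ratios of 1.75 (1.41 to 2.18) and 1.87 (1.53 to 2.30), the highest of the 38 in C1-sgKMT2D. DSCC1, a subunit of the clamp loader used in sister chromatid cohesion, followed with 13.2, 13.9 and 7.66 CPM and ratios of 1.72 and 1.82. PCNA, the sliding clamp and a widely used S phase marker, was read at 155 CPM (147 to 163) in C1-sgEED, 113 CPM (107 to 118) in C1-sgKMT2D and 114 CPM (107 to 121) in C1-sgControl. Its ratio was 1.36 (1.26 to 1.47) in C1-sgEED and 0.989 (0.915 to 1.07) in C1-sgKMT2D, so in C1-sgKMT2D the clamp gene stood at the level of the control. RFC2, a subunit of the clamp loader, had ratios of 1.59 and 1.45. POLD3 of DNA polymerase delta had ratios of 1.43 and 1.55, and TIPIN, a fork protection factor, 1.59 and 1.47. RPA2, a subunit of the single-strand binding protein RPA, had the lowest C1-sgEED ratio of the group and was read at 34.2 CPM in C1-sgEED, 38.4 CPM in C1-sgKMT2D and 29.9 CPM in C1-sgControl, with ratios of 1.14 (0.977 to 1.34) and 1.28 (1.11 to 1.48). POLA1, the catalytic subunit of DNA polymerase alpha, was read at 6.24, 4.73 and 5.24 CPM with ratios of 1.19 (0.813 to 1.75) and 0.903 (0.618 to 1.32), so no difference was detectable at its depth.

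The 3 genes of nucleotide supply were higher in each knockout line, with all 6 intervals above 1. TYMS, the thymidylate synthase, was read at 87.9 CPM in C1-sgEED, 70.7 CPM in C1-sgKMT2D and 45.9 CPM in C1-sgControl, with ratios of 1.91 (1.71 to 2.15) and 1.54 (1.38 to 1.72). RRM2, the small subunit of ribonucleotide reductase and the one that follows the cell cycle, was read at 114, 78.9 and 59.9 CPM, with ratios of 1.91 (1.72 to 2.11) and 1.32 (1.19 to 1.46). RRM1, its large partner, was read at 74.9, 69.6 and 55.7 CPM, with ratios of 1.34 (1.20 to 1.502) and 1.25 (1.12 to 1.39). TYMS overlaps a gene on the other strand and RRM2 and PCNA have processed pseudogenes, and how the authors' counting treated such reads is not given, so the levels of these 3 are less certain.

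Genes that package the new DNA and keep its marks split by gene. NASP, a chaperone of histones, was read at 225 CPM in C1-sgEED, 205 CPM in C1-sgKMT2D and 114 CPM in C1-sgControl, with ratios of 1.98 (1.84 to 2.12) and 1.80 (1.68 to 1.93), the highest of the 8 genes in each line. UHRF1, which reads hemimethylated DNA after the fork and recruits the maintenance methyltransferase, was read at 21.3, 10.25 and 12.8 CPM, with ratios of 1.66 (1.33 to 2.08) and 0.801 (0.626 to 1.03). CDCA7, a partner of the HELLS remodeller in the same process, went the other way at 27.2, 39.3 and 24.98 CPM, with ratios of 1.09 (0.914 to 1.30) and 1.57 (1.35 to 1.83). HELLS itself had ratios of 1.46 and 1.10. UHRF1 and HELLS were thus higher in C1-sgEED and CDCA7 in C1-sgKMT2D, though the 3 act in the upkeep of DNA methylation. ATAD2, a bromodomain ATPase, had ratios of 1.38 and 1.57, SLBP, which binds the ends of histone mRNAs, 1.26 and 1.23, WDR76, a WD repeat protein, 1.73 and 1.29, and CHAF1B, a subunit of the histone loader CAF-1, 1.38 and 1.17.

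The 4 repair genes and the cyclin and E2F pair split between lines in different ways. EXO1, a nuclease of mismatch repair, was read at 7.22 CPM in C1-sgEED, 2.87 CPM in C1-sgKMT2D and 3.22 CPM in C1-sgControl, with ratios of 2.24 (1.46 to 3.50) and 0.889 (0.545 to 1.46). RAD51AP1, which acts in repair by homologous recombination, had ratios of 1.72 (1.40 to 2.11) and 1.34 (1.09 to 1.64), and USP1, which removes ubiquitin from PCNA, 1.46 and 1.22 at 60.45, 50.4 and 41.4 CPM in the 3 lines. UNG, the glycosylase that removes uracil from DNA, was read at 19.7, 17.9 and 18.7 CPM, with ratios of 1.05 (0.857 to 1.29) and 0.956 (0.788 to 1.16), the lowest C1-sgEED ratio of all 38. CCNE2, the cyclin E2 partner of CDK2, was read at 6.05, 3.08 and 3.63 CPM, with ratios of 1.67 (1.09 to 2.59) and 0.8495 (0.533 to 1.36). E2F8, an atypical E2F that represses the same targets, was read at 5.17, 3.08 and 2.42 CPM, with ratios of 2.14 (1.30 to 3.62) and 1.27 (0.756 to 2.20). In C1-sgKMT2D neither of this pair differed from the control beyond its interval.

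Set directly against each other, the knockout lines differed by at least 1.5-fold in 7 of the 38 genes, a share near that of all genes. C1-sgKMT2D over C1-sgEED gave a ratio of the sums of 0.844 (0.828 to 0.861). Without scaling, member UMIs per cell ran the other way, at 9.61 in C1-sgKMT2D and 8.4 in C1-sgEED, whose median depths were 5526 and 3915 UMIs. By CPM there were 0 of 38 members at least 1.5-fold higher and 7 at least 1.5-fold lower, while 3.39% of 9445 genes were as far higher and 14.1% as far lower. The members' median was 0.865 beside 0.929 for all genes, and the 7 lower members are 18.4% of the set, near the 14.1% of all genes. The 7 were EXO1 at 0.397 (0.263 to 0.591), GINS2 at 0.422 (0.373 to 0.477), UHRF1 at 0.482 (0.388 to 0.598), CCNE2 at 0.510 (0.337 to 0.764), FEN1 at 0.546 (0.488 to 0.612), CLSPN at 0.563 (0.499 to 0.636) and E2F8 at 0.596 (0.389 to 0.909). They come from 5 of the 7 role groups, with no member from the MCM ring, where the ratios ran from MCM3 at 0.742 (0.669 to 0.823) to MCM7 at 0.968 (0.890 to 1.05), and none from nucleotide supply, where they ran from RRM2 at 0.691 (0.636 to 0.751) to RRM1 at 0.929 (0.844 to 1.02). CDCA7 at 1.44 (1.25 to 1.67) and ATAD2 at 1.14 (1.06 to 1.23) were the members with an interval above 1. No difference was detectable for DTL at 1.20 (0.903 to 1.59), RPA2 at 1.12 (0.979 to 1.29) and UNG at 0.910 (0.753 to 1.10), each the highest of its role group and each with 1 inside its interval. MCM2 at 0.908 (0.744 to 1.11) and MCM5 at 0.872 (0.774 to 0.983) lay close to 1, with PCNA at 0.727 (0.677 to 0.780), TYMS at 0.804 (0.734 to 0.881) and CDC6 at 0.760 (0.624 to 0.927) lower. The median ratio of 392 genes on chromosome 16, which holds GINS2, was 0.64 in this comparison, with 95.4% below 1. The part of that chromosome-wide value in the GINS2 value was not tested.

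Within the C1-sgEED line the 38 genes followed the VIM-rich class. VIM-rich cells held 2519 CPM (2471 to 2568) of member UMIs and KRT17-rich cells 1466 CPM (1431 to 1501), a ratio of 1.72 (1.67 to 1.77). In C1-sgKMT2D the classes held 1821 CPM (1782 to 1861) and 1449 CPM (1419 to 1480), a ratio of 1.26 (1.22 to 1.30). C1-sgControl had 16 VIM-rich cells, too few to compare, and its 1469 KRT17-rich cells held 1136 CPM (1113 to 1159). In C1-sgEED, 26 of 38 members were at least 1.5-fold higher in VIM-rich than in KRT17-rich cells and 0 as far lower, beside 15.1% and 16.7% of 9639 genes. In C1-sgKMT2D, 8 of 38 were as far higher and 1 as far lower, beside 10.5% and 10.2% of 9094 genes. The medians were 1.73 in C1-sgEED and 1.25 in C1-sgKMT2D, with 1.01 for all genes in each. VIM-rich cells were shallower, with medians of 3397 UMIs against 4403 in KRT17-rich cells of C1-sgEED, and 4360 against 6830 in C1-sgKMT2D. In UMIs per cell, without scaling, the order stayed in C1-sgEED (9.6 in VIM-rich and 7.21 in KRT17-rich cells) and was the opposite in C1-sgKMT2D (8.69 and 9.98). The C1-sgKMT2D difference is therefore one of share of the transcriptome and not of captured molecules per cell.

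**Figure D2:**
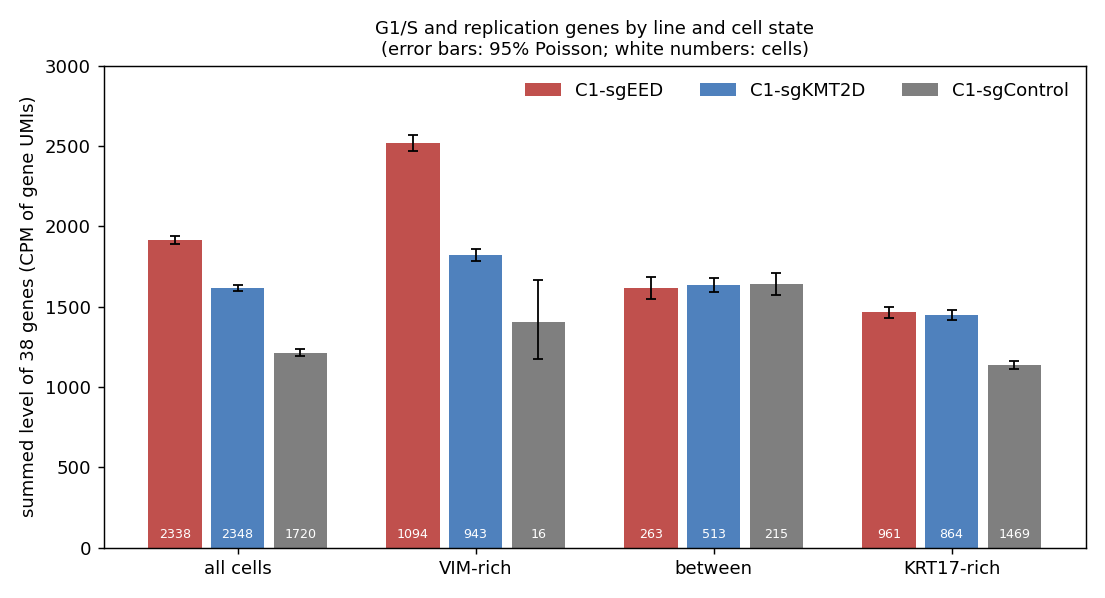
Summed CPM of the 38 genes by line and class of cells, with bars from 0, 95% Poisson error bars and the number of cells in white. The C1-sgEED VIM-rich bar at 2519 CPM stands above the other 11, and the 3 between bars lie at 1617 (C1-sgEED), 1636 (C1-sgKMT2D) and 1641 CPM (C1-sgControl).

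The highest C1-sgEED ratios between the classes were those of FEN1, CLSPN, E2F8 and CDC45, which have different roles. FEN1 was read at 125 CPM in VIM-rich and 31.1 CPM in KRT17-rich C1-sgEED cells, a ratio of 4.03 (3.35 to 4.87), and at 44.9 and 30.1 CPM in the same classes of C1-sgKMT2D, a ratio of 1.49 (1.21 to 1.83). CLSPN was read at 102 and 29.4 CPM in C1-sgEED, a ratio of 3.46 (2.85 to 4.22), and at 33.6 and 29.9 CPM in C1-sgKMT2D, a ratio of 1.12 (0.897 to 1.40). In KRT17-rich cells the 2 lines thus read these genes alike, and C1-sgControl KRT17-rich cells read 28.9 CPM of FEN1 and 25.3 CPM of CLSPN. CDC45 was read at 43.9 and 14.4 CPM in C1-sgEED, a ratio of 3.05 (2.30 to 4.09), and at 20.7 and 23.2 CPM in C1-sgKMT2D, a ratio of 0.891 (0.677 to 1.17). E2F8 had a ratio of 3.05 (1.58 to 6.29) in C1-sgEED, from 8.40 and 2.75 CPM, and of 1.89 in C1-sgKMT2D. CDC6 had ratios of 2.74 (1.97 to 3.85) in C1-sgEED and 1.61 (1.16 to 2.25) in C1-sgKMT2D, and EXO1 2.89 (1.69 to 5.12) and 0.826 (0.335 to 1.94). Across the members the C1-sgEED ratio was the larger for 34 of 38. The 2 lines' intervals lay apart for 11 members, all with C1-sgEED above (MCM3, MCM5, MCM7, CDC45, GINS2, GMNN, PCNA, FEN1, CLSPN, RRM1 and USP1), and overlapped for 27. The difference between the 2 effects was not itself tested. Neither count was made for all genes, so they do not show what is particular to the members. Of all genes, 15.1% were at least 1.5-fold higher and 16.7% lower in VIM-rich C1-sgEED cells, beside 10.5% and 10.2% in C1-sgKMT2D.

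A few members behaved alike in both lines. TYMS was read at 125 and 64.1 CPM in VIM-rich and KRT17-rich C1-sgEED cells, a ratio of 1.94 (1.68 to 2.25), and at 95.1 and 47.6 CPM in C1-sgKMT2D, a ratio of 2.00 (1.72 to 2.33). RRM2 had ratios of 1.90 (1.67 to 2.16) and 1.73 (1.504 to 1.99), NASP 1.35 (1.24 to 1.48) and 1.44 (1.32 to 1.57), and WDR76 2.02 (1.32 to 3.12) and 2.14 (1.37 to 3.38). MCM2 had the larger ratio in C1-sgKMT2D, at 2.12 (1.55 to 2.93) against 1.33 (0.967 to 1.84) in C1-sgEED. The 1 member at least 1.5-fold lower in VIM-rich C1-sgKMT2D cells was DSCC1 at 0.646 (0.438 to 0.940), and with classes set by more UMIs of either gene its ratio was 0.949. RFC2 (1.11 and 1.05) and UNG (1.21 and 1.05) lay near 1 in both lines, with 1 inside each interval.

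**Figure D3:**
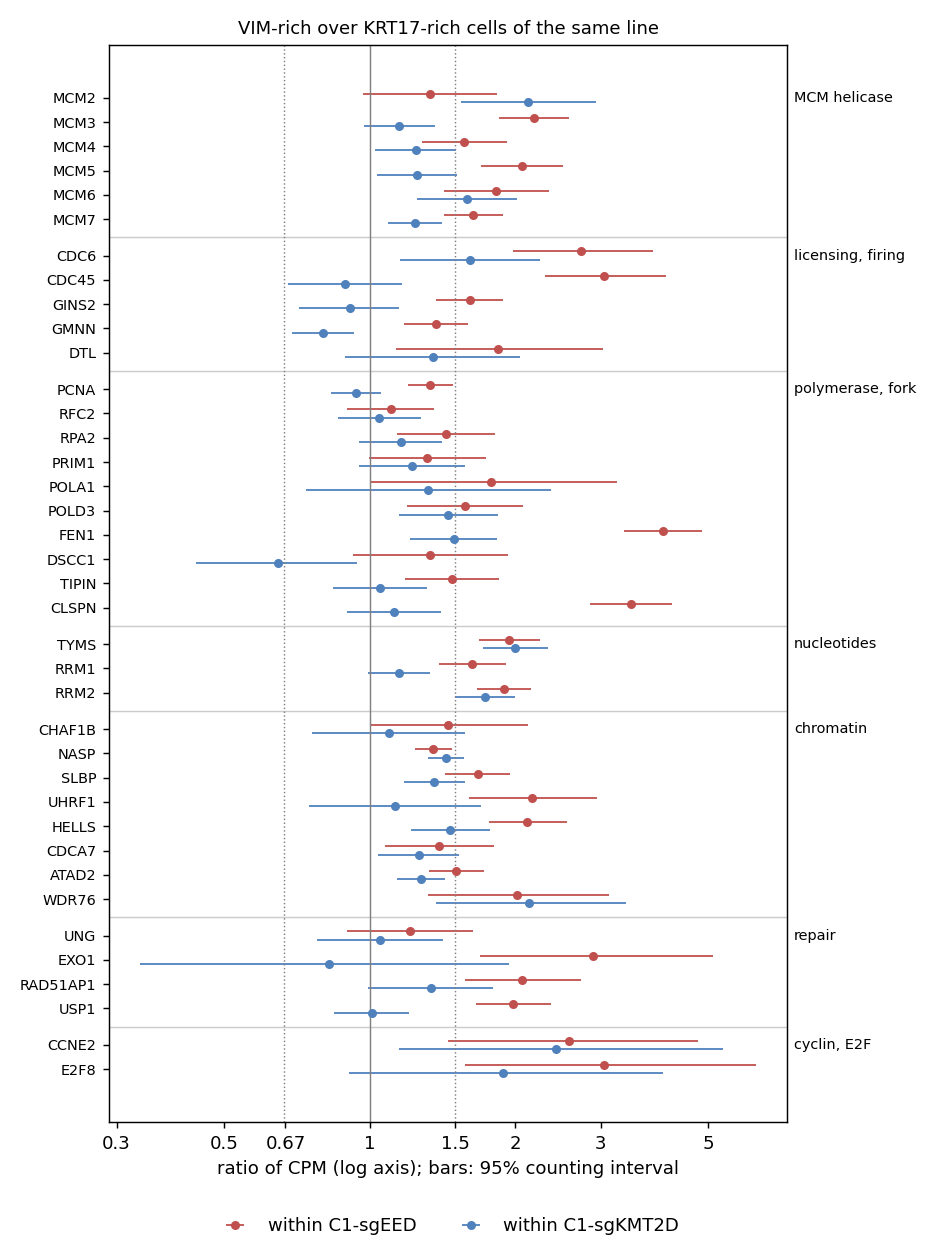
Ratio of CPM in VIM-rich to KRT17-rich cells of the same line for the 38 genes by role, on a log axis, for C1-sgEED (red) and C1-sgKMT2D (blue), with 95% counting intervals. EXO1, CDC45, CLSPN and FEN1 show the widest separation of the 2 lines, with wide intervals for EXO1, and TYMS, NASP and WDR76 lie together.

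Held to the same class, the lines differed as follows. KRT17-rich C1-sgEED cells over KRT17-rich C1-sgControl cells gave a ratio of the sums of 1.29 (1.25 to 1.33), with 6 of 38 members at least 1.5-fold higher (GINS2, RFC2, PRIM1, DSCC1, RRM2 and NASP) and 0 as far lower, beside 9.98% and 5.58% of 9523 genes. KRT17-rich C1-sgKMT2D cells over KRT17-rich C1-sgControl cells gave 1.28 (1.24 to 1.31), with 9 members higher (MCM5, MCM7, GMNN, RFC2, PRIM1, DSCC1, NASP, CDCA7 and ATAD2) and 1 lower (CCNE2, whose interval of 0.290 to 1.28 holds 1), beside 7.4% and 14.8% of 9194 genes. RFC2, PRIM1, DSCC1 and NASP are in both lists, and the 2 comparisons share their control cells. The share of members higher, 15.8% for C1-sgEED, was closer to its background than the 57.9% of the whole lines. For C1-sgKMT2D the share changed little, at 23.7% in KRT17-rich cells and 26.3% in the whole lines. VIM-rich C1-sgKMT2D cells over VIM-rich C1-sgEED cells gave a ratio of the sums of 0.723 (0.702 to 0.744), with 0 members at least 1.5-fold higher and 15 as far lower, beside 11.3% and 20.8% of 9318 genes. Lowest were EXO1 at 0.182 (0.0822 to 0.362), GINS2 at 0.296 (0.239 to 0.364), CLSPN at 0.330 (0.272 to 0.398), UHRF1 at 0.335 (0.235 to 0.471) and FEN1 at 0.358 (0.303 to 0.422). CDCA7 at 1.47 (1.18 to 1.84) was the 1 member with an interval above 1.

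To see how the transcripts were spread over cells, each cell was thinned to 2000 gene UMIs, which left out 167 shallower C1-sgEED, 114 C1-sgKMT2D and 84 C1-sgControl cells. A thinned cell held on average 3.84 member UMIs in C1-sgEED, 3.21 in C1-sgKMT2D and 2.26 in C1-sgControl. Cells with 6 or more member UMIs, which is above the 90th percentile of C1-sgControl, made up 23.9% (22.1 to 25.7) of C1-sgEED, 15.6% (14.1 to 17.1) of C1-sgKMT2D and 9.41% (8.04 to 10.9) of C1-sgControl cells. Not thinned, the shares over the control's 90th percentile were 10.7% in C1-sgEED, 14.3% in C1-sgKMT2D and 9.77% in C1-sgControl, where cells of unequal depth were compared. The class is a range and not a cell type, with 604, 574 and 266 cells of these lines within 1 UMI of its bound. In VIM-rich and KRT17-rich C1-sgEED cells the shares were 37.3% (34.3 to 40.4) and 12.0% (9.93 to 14.2), and in the same classes of C1-sgKMT2D 19.8% (17.3 to 22.6) and 11% (8.91 to 13.3), with 8.03% (6.66 to 9.58) in KRT17-rich C1-sgControl cells. Thinned VIM-rich cells of C1-sgEED held 4.92 member UMIs on average and KRT17-rich cells 2.86. In C1-sgKMT2D the same classes held 3.57 and 2.81, so the class difference stood at equal depth in each knockout line and was smaller in C1-sgKMT2D.

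**Figure D4:**
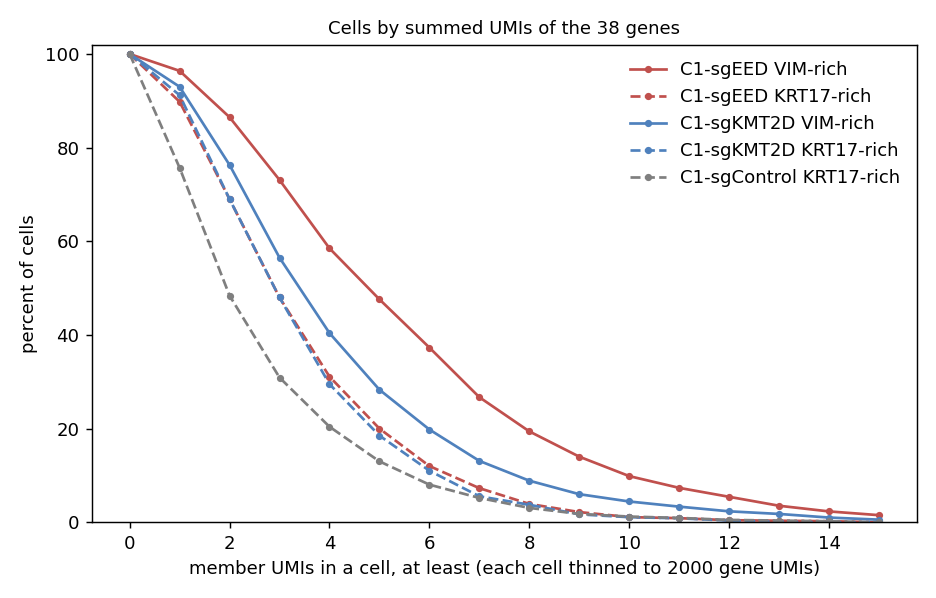
Percent of cells with at least the number of member UMIs on the x axis, each cell thinned to 2000 gene UMIs, for VIM-rich (solid) and KRT17-rich (dashed) cells of C1-sgEED (red), C1-sgKMT2D (blue) and C1-sgControl (grey). The KRT17-rich curves of the knockout lines run together, well above the control at low counts, and at 7 or more UMIs they stand at 7.28% (C1-sgEED) and 5.54% (C1-sgKMT2D), with C1-sgControl at 5.19%.

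The KRT17-rich cells of the lines differed most at the bottom of the range. Cells with 0 member UMIs after thinning made up 10.2% (8.34 to 12.4) of KRT17-rich C1-sgEED, 8.78% (6.95 to 10.9) of KRT17-rich C1-sgKMT2D and 24.3% (22.1 to 26.6) of KRT17-rich C1-sgControl cells. The variance over the mean of the count was 1.75, 1.61 and 2.37 in these groups, and the 10% of cells with the most member UMIs held 26.7%, 26.1% and 34.0% of them. Counts in C1-sgControl were thus more concentrated in few cells than in KRT17-rich cells of either knockout line. At 5000 UMIs the variance over the mean was 3.15 in 365 C1-sgEED, 2.64 in 615 C1-sgKMT2D and 4.65 in 878 C1-sgControl cells of that class. Free RNA in the droplets gives such UMIs to cells that do not express a gene, and its part in the share of cells at 0 was not tested. All cells came from the same library.

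The MCM genes marked cells rich in the other 32 members. Cells with 2 or more UMIs of MCM2 to MCM7 after thinning made up 14.6% of C1-sgEED, 11.3% of C1-sgKMT2D and 6.91% of C1-sgControl cells. In these cells the other 32 genes summed to 2570 CPM in C1-sgEED, against 1445 CPM in the remaining cells of the line, a ratio of 1.78 (1.68 to 1.88). The ratio was 1.44 (1.34 to 1.54) in C1-sgKMT2D (1823 and 1269 CPM) and 2.15 (1.93 to 2.38) in C1-sgControl (1867 and 869 CPM). Among cells with few MCM UMIs, the 32 genes were higher in each knockout line, with ratios to C1-sgControl of 1.66 (1.59 to 1.74) in C1-sgEED and 1.46 (1.39 to 1.53) in C1-sgKMT2D. Among the MCM-rich cells the ratios were 1.38 (1.24 to 1.54) and 0.977 (0.869 to 1.10). In KRT17-rich C1-sgKMT2D cells the levels of the 32 genes did not differ beyond their intervals, with 1193 CPM (1019 to 1388) in 70 MCM-rich cells and 1177 CPM (1124 to 1233) in 761 other cells.

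**Figure D5:**
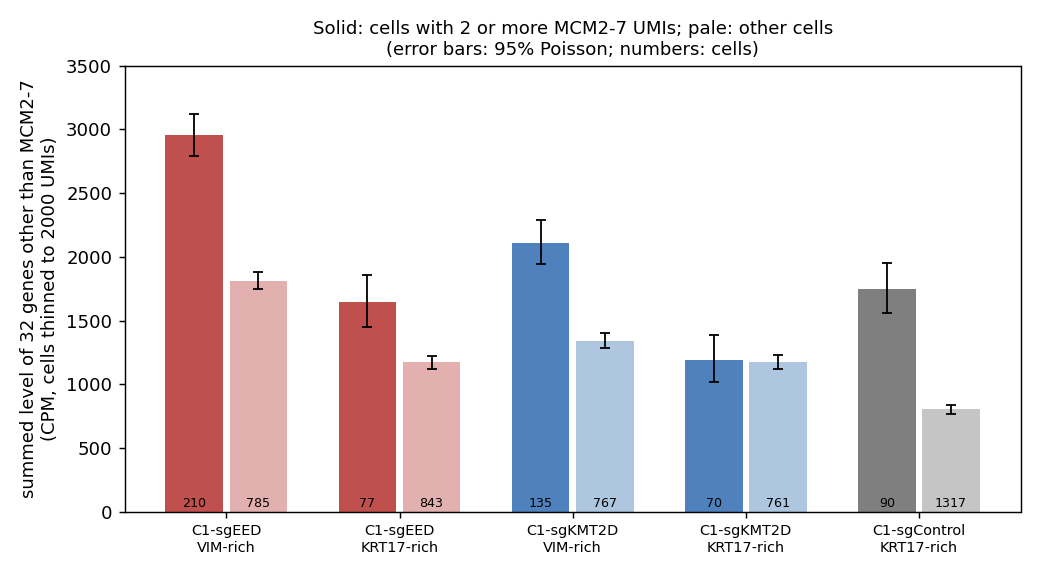
Summed CPM of the 32 members other than MCM2 to MCM7 in cells with 2 or more MCM UMIs (solid) and other cells (pale), by line and class, each cell thinned to 2000 UMIs, with bars from 0, 95% Poisson error bars and cell numbers. The solid bar is above the pale one in each group, by the least in KRT17-rich C1-sgKMT2D, where they stand at 1193 and 1177 CPM with overlapping intervals.

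The G2/M genes, which act after replication, were higher in the same lines. Of the 54 genes on the G2/M list, 41 (75.9%, beside 11.7% of all genes) were 1.5-fold or more above the control in C1-sgEED and 34 (63.0%, beside 7.76%) in C1-sgKMT2D, with 0 as far below it in either. The list summed to 5665 CPM in C1-sgEED, 4820 CPM in C1-sgKMT2D and 3241 CPM in C1-sgControl. The ratios of these sums, 1.75 (1.72 to 1.77) and 1.49 (1.47 to 1.51), were above those of the 38 members. In KRT17-rich cells, 37 G2/M genes (68.5%) passed 1.5-fold in C1-sgEED over C1-sgControl, where 6 of the 38 members (15.8%) and 9.98% of all genes did. MKI67, the proliferation marker Ki-67, was read at 264, 225 and 143 CPM in the 3 lines, with ratios of 1.84 and 1.57. TOP2A, the topoisomerase that untangles sister chromatids, had ratios of 1.90 and 1.92, and CDK1, the mitotic kinase, 2.58 and 2.46. NDC80 (3.13), FAM64A (3.08) and CDK1 were the highest of the list in C1-sgEED, and RANGAP1 (0.991), ANLN (1.20) and CKAP5 (1.21) the lowest. In C1-sgKMT2D FAM64A (2.501), CDK1 and TTK (2.31) were the highest, and CBX5 (0.673), TUBB4B (0.998) and CENPE (1.03) the lowest. In C1-sgKMT2D over C1-sgEED the G2/M ratios ran from CBX5 (0.518), HMMR (0.537) and CENPE (0.564) up to GAS2L3 (1.10), HMGB2 (1.14) and CKAP5 (1.16).

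Cells rich in G2/M transcripts, those with 18 or more UMIs of the G2/M list after thinning, made up 22.8% (21.0 to 24.6) of C1-sgEED, 14.6% (13.2 to 16.1) of C1-sgKMT2D and 9.29% (7.93 to 10.8) of C1-sgControl cells. Cells over both bounds, with 6 or more member UMIs as well, were 5.71%, 3.22% and 1.28% of these lines. Against the other cells of their line, G2/M-rich C1-sgEED cells had 5 of the 38 members at least 1.5-fold higher and 7 as far lower, beside 14.8% and 10.5% of 9590 genes. The counts were 10 and 9 in C1-sgKMT2D, beside 20.4% and 10.1% of 9147 genes, and 18 and 7 in C1-sgControl, beside 28.1% and 13.7% of 9355 genes. RRM2 was the clearest of those that stayed high, at 172 CPM in G2/M-rich and 85.3 CPM in other C1-sgEED cells, 190.2 and 55.0 CPM in C1-sgKMT2D, and 184 and 37.1 CPM in C1-sgControl. Its ratios of 2.02 (1.66 to 2.45), 3.46 (2.75 to 4.34) and 4.97 (3.54 to 6.92) followed a level in G2/M-rich cells that was close in the 3 lines and a level in other cells that was not. RAD51AP1 had ratios of 2.46 (1.65 to 3.63), 4.11 (2.55 to 6.55) and 5.79 (2.91 to 11.1), and CLSPN, TYMS, RRM1 and ATAD2 also had intervals above 1 in each line. UNG was low in G2/M-rich cells, at 6.07 CPM against 26.2 CPM in other cells of C1-sgEED, a ratio of 0.232 (0.0827 to 0.524), and at 7.67 and 20.7 CPM in C1-sgKMT2D, a ratio of 0.370 (0.117 to 0.902). In C1-sgControl, with 2 UMIs of UNG in G2/M-rich cells, it was read at 6.58 and 17.9 CPM, a ratio of 0.368 (0.0435 to 1.40) that holds 1 within its interval. MCM3 lay at 0.701 (0.509 to 0.947), 0.695 (0.444 to 1.05) and 0.702 (0.330 to 1.33) in the 3 lines. As a share of the 38, the higher calls were thus slightly under that of all genes in C1-sgEED. They were somewhat above it in C1-sgKMT2D and further above it in C1-sgControl. The lower calls were above the share of all genes in each line, by the least in C1-sgControl. There the 7 lower members had 0 to 5 UMIs each in G2/M-rich cells, and 0 members had an interval below 1. Single genes lay on either side of 1.

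Other replication genes, 49 that are not among the 38, were also looked at. In C1-sgEED 13 of the 49 (26.5%, beside 11.7% of all genes) were 1.5-fold or more above C1-sgControl and 0 as far below. In C1-sgKMT2D 10 (20.4%, beside 7.76%) were above and 1 below, and their sums stood at 2173 and 1847 CPM against 1626 CPM in C1-sgControl. MCM10 (2.38) and CDC7 (2.21) were among the highest C1-sgEED ratios, and CHTF8 (0.809), POLE4 (0.909) and GINS1 (0.982) the lowest. DBF4 (1.97) and RFC4 (1.97), with MCM10 (1.90), were the highest in C1-sgKMT2D, and CHTF8 (0.594), POLE4 (0.747) and RNASEH2C (0.885) the lowest. In C1-sgKMT2D over C1-sgEED ASF1B (0.545), ASF1A (0.568) and RNASEH2C (0.595) were the lowest, and POLD1 (1.40), ORC2 (1.32) and ATAD5 (1.30) the highest. Within C1-sgEED, 21 of the 49 (42.9%, beside 15.1% of all genes) were at least 1.5-fold higher in VIM-rich cells, and within C1-sgKMT2D 2 were (4.08%, under the 10.5% of all genes).

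The 34 genes that control entry into S phase, cyclins, kinases, inhibitors and E2F factors, held more higher calls than all genes and lower calls near the share of all genes. In C1-sgEED 9 (26.5%, beside 11.7% of all genes) were at least 1.5-fold higher and 2 (5.88%, beside 8.65%) lower than in C1-sgControl. In C1-sgKMT2D 7 (20.6%, beside 7.76%) were higher and 6 (17.6%, beside 14.6%) lower. E2F1, an activator of the replication genes, was read at 20.9 CPM in C1-sgEED, 14.3 CPM in C1-sgKMT2D and 7.96 CPM in C1-sgControl, with ratios of 2.62 (2.02 to 3.44) and 1.80 (1.38 to 2.37). CDKN1A, the p21 inhibitor of cyclin-dependent kinases, was read at 185, 137 and 255 CPM, with ratios of 0.727 (0.684 to 0.772) and 0.538 (0.506 to 0.571). CCND1, cyclin D1, was read at 148, 86.3 and 166 CPM, with ratios of 0.893 (0.832 to 0.958) and 0.521 (0.483 to 0.562). E2F1 was thus higher, and p21 and cyclin D1 lower, in each knockout line. CDK6, a cyclin D kinase, was at 0.454 and 0.476, CCNE1 at 1.78 and 1.13, CDK2 at 1.28 and 1.20, and RB1 at 0.890 and 0.829. CDKN2C (3.26), E2F1 and CCNA2 (2.16) were the highest of the list in C1-sgEED, with CDK6, E2F3 (0.652) and MYC (0.724) the lowest. CDKN1C (2.91), E2F5 (2.07) and CDKN2C (1.87) were the highest in C1-sgKMT2D, with CCND2 (0.444), CDK6 and CCND1 the lowest. In C1-sgKMT2D over C1-sgEED MYC (1.73), TFDP2 (1.58) and E2F5 (1.499) were the highest, and CCND2 (0.468), E2F7 (0.511) and CDKN2C (0.574) the lowest. Between the classes of C1-sgEED, E2F1 was read at 35.3 CPM in VIM-rich and 9.94 CPM in KRT17-rich cells, a ratio of 3.55 (2.54 to 5.04), and CDKN1A at 94.0 and 274 CPM, a ratio of 0.343 (0.306 to 0.384). In C1-sgKMT2D the same ratios were 1.56 (1.11 to 2.19) for E2F1 and 0.800 (0.717 to 0.893) for CDKN1A.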

How the data were processed

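Cells of the 3 lines were read with 10x 3′ v2 chemistry. The deposited UMI counts per gene and barcode and per hashtag were made by the authors with Cell Ranger 3.0.2 on GRCh38, per the submitters' processing notes and, for the tool, per the file headers. The sources used here do not give the annotation version. The files held 10336 barcodes. Those with at least 500 genes and at most 20% mitochondrial UMIs were kept (9193). A hashtag was called above the crossing point of a mixture of 2 normal curves, at 143 to 178 UMIs, and its line was read from the labels. The 826 kept barcodes with several hashtags were removed as doublets. About 281 doublets within 1 hashtag (3.37%) cannot be seen this way.

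UMIs were summed per line and class and scaled to CPM. Ratios carry exact conditional binomial intervals, sums exact Poisson intervals and shares Clopper-Pearson intervals, all at 95% and for counting error only, without a test since each line is 1 sample. Called means at least 1.5-fold. The intervals were tested on simulated Poisson counts. Such counts hold no spread between cells or cultures beyond counting error, so this is no check of the intervals against that spread. The 38 members and the other lists were chosen with earlier results of these data known. All members are named, with full values for the highest and lowest ratio of each role and 8 set genes, and for other lists the 3 highest and 3 lowest ratios (1 of these genes is not reported here) and 9 set genes. Alternatives changed the scaling, cell filter, doublet and hashtag calls, fold, gene floor, class bounds, thinning depth and percentile. Gene coordinates are from GENCODE v29. Python 3.11.15, numpy 2.4.6, pandas 2.3.3, scipy 1.17.1, scikit-learn 1.9.0, scanpy 1.11.5 and matplotlib 3.10.9 were used.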

Additional observations from a re-analysis of the deposited data

Results flagged for a closer look

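GINS2, the helicase subunit gene on chromosome 16, lay on opposite sides of the control in the knockout lines, with a ratio to C1-sgControl of 1.886 in C1-sgEED and 0.7961 in C1-sgKMT2D. GMNN, the geminin gene, lay on opposite sides between the classes, with a ratio of VIM-rich to KRT17-rich cells of 1.372 in C1-sgEED (92.6 and 67.5 CPM) and 0.8014 in C1-sgKMT2D (64.0 and 79.9 CPM). Each of these 4 intervals excluded 1, and the difference between the effects was not tested.

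Cells with hashtag 2, which the labels give to no line, held 3 of the 38 members at least 1.5-fold above C1-sgControl, beside 7.18% of 9137 genes. POLD3 was read at 40.36 CPM in hashtag 2 cells against 17.3 CPM in C1-sgControl, DSCC1 at 13.72 against 7.66 CPM, and TYMS at 91.68 against 45.9 CPM.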

How the results depend on the processing

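Ratios of the summed members kept their direction under every alternative in scaling, filters and calls listed with the methods, from 1.493 to 1.688 for C1-sgEED over C1-sgControl, 1.292 to 1.399 for C1-sgKMT2D over C1-sgControl, 0.8067 to 0.9092 for C1-sgKMT2D over C1-sgEED, 1.627 to 1.798 for VIM-rich over KRT17-rich cells in C1-sgEED and 1.238 to 1.321 in C1-sgKMT2D. Within KRT17-rich cells they ran from 1.224 to 1.373 (C1-sgEED over C1-sgControl) and from 1.233 to 1.341 (C1-sgKMT2D over C1-sgControl), and from 0.7179 to 0.8057 in VIM-rich C1-sgKMT2D over C1-sgEED cells. Counts of members at least 1.5-fold higher moved by more than 1.5 times as follows. In C1-sgKMT2D over C1-sgEED the count was 1 in place of 0 without mitochondrial and ribosomal protein genes in the total, with the median of all genes set to 1 (it stood at -0.107 on the log2 scale) and with Scrublet calls removed. In VIM-rich cells of these lines it was 1 in place of 0 under the first 2 of these settings (the median stood at -0.123) and under the strict cell filter of at least 1000 genes and at most 10% mitochondrial UMIs. That filter left 5 of 9 in KRT17-rich C1-sgKMT2D over C1-sgControl cells, and classes set by at least 4 times as many UMIs gave 11 in place of 6 in KRT17-rich C1-sgEED over C1-sgControl cells. At 2-fold the counts were 5 for C1-sgEED over C1-sgControl, 0 for C1-sgKMT2D over C1-sgControl, 13 for VIM-rich over KRT17-rich cells in C1-sgEED, 3 in C1-sgKMT2D, and 0 (C1-sgEED over C1-sgControl) and 1 (C1-sgKMT2D over C1-sgControl) in KRT17-rich cells. Lower members at 2-fold were 3 in place of 7 in C1-sgKMT2D over C1-sgEED and 7 in place of 15 in VIM-rich cells of these lines. Without any scaling, member UMIs per cell turned the direction over for C1-sgKMT2D over C1-sgEED (9.61 and 8.4) and for VIM-rich over KRT17-rich C1-sgKMT2D cells (8.69 and 9.98). Cells rich in member UMIs made up 17.2% of C1-sgEED and 11.1% of C1-sgKMT2D cells when thinned to 5000 UMIs, 10.7% in C1-sgEED when not thinned, 33.1%, 23.4% and 14.8% in C1-sgEED, C1-sgKMT2D and C1-sgControl over the control's 80th percentile, and 18.2%, 9.86% and 6.69% in these lines under the strict filter. Beyond the settings' own construction, the cause was not tested. The automatic Scrublet threshold marked 0% of barcodes, so the 10% with the highest scores were marked, which took 54.7% of the barcodes with several hashtags and 5.81% of the cells with 1 hashtag. Of the ratios of single members under an alternative, 3403 stayed within their counting interval and 17 did not. The 3403 include 304 each for 2-fold and for gene floors of 1 and 20 CPM. These settings do not enter the ratio, so those values could not move. No paired analysis was possible because each line is 1 sample with no replicate number, and no replicate could be left out. Members under about 10 CPM have wide intervals that limit what can be seen.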

Other observations

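The 1935 cells with hashtag 2, which belong to no comparison, held 1195 CPM (1175 to 1215) of the 38 genes, with 1302 CPM in 1048 VIM-rich, 1109 CPM in 509 between and 1066 CPM in 357 KRT17-rich cells. Beside the 3 higher members, 7 were at least 1.5-fold below C1-sgControl there, beside 23.4% of all genes, so the members' share was near or under the background in each direction. CCNE2 was read at 1.06 CPM in hashtag 2 cells against 3.63 CPM in C1-sgControl, POLA1 at 2.48 against 5.24 CPM, RRM2 at 30.5 against 59.9 CPM, DTL at 3.72 against 7.15 CPM, CHAF1B at 5.31 against 10.1 CPM, CLSPN at 18.1 against 29.6 CPM and PCNA at 74.0 against 114 CPM. After thinning to 2000 UMIs, 7.27% (6.13 to 8.55) of hashtag 2 cells held 6 or more member UMIs and 15.2% (13.6 to 17.0) held none.

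Cells between the VIM-rich and KRT17-rich classes held nearly the same share of member UMIs in the 3 lines, at 1617 CPM (1549 to 1687) in 263 C1-sgEED, 1636 CPM (1593 to 1679) in 513 C1-sgKMT2D and 1641 CPM (1574 to 1710) in 215 C1-sgControl cells. The share of between cells with 6 or more member UMIs was 14.5% (10.3 to 19.4), 15.3% (12.2 to 18.8) and 17.4% (12.5 to 23.3) in the same lines.

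Cells removed for over 20% mitochondrial UMIs, with at least 500 genes, held 1650 CPM (1412 to 1915) of the members in 56 C1-sgEED cells, 1404 CPM (1212 to 1619) in 63 C1-sgKMT2D cells and 1093 CPM (1018 to 1171) in 366 C1-sgControl cells, so the order of the lines was the same among them as among the cells kept.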
